A study of Danio rerio with 8 samples.

Results

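The lower arm of glycolysis was followed in zebrafish heart cells as 10 genes: gapdh, gapdhs, pgk1, pgam1a, pgam1b, pgam2, eno1a, eno3, pkma and pkmb. They were chosen by gene symbol for the 5 enzymes that turn glyceraldehyde-3-phosphate into pyruvate, and 10 of the 21232 genes in the count table matched. The libraries were made from polyadenylated RNA of dissociated adult ventricles, whose cells are labelled as cardiomyocytes. There were 4 control libraries and 4 libraries from fish with Hmga1a overexpression. The fish of both groups carried cmlc2:dsred, a red fluorescent reporter behind the promoter of the heart myosin light chain gene myl7, and both groups are labelled 14 days post tamoxifen. Tamoxifen induced the overexpression. The labels do not give the promoter of the Hmga1a transgene, an age for the adult fish, how cells were picked for the libraries or how many fish stand behind a library. The p-values therefore speak of how these libraries vary, which may be partly technical.

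Lower glycolysis takes the 3-carbon sugar made by triosephosphate isomerase and turns it into pyruvate, yielding ATP at phosphoglycerate kinase and at pyruvate kinase and NADH at glyceraldehyde-3-phosphate dehydrogenase. Several steps are served by more than 1 gene copy. In mammals, PGAM2 and ENO3 are the phosphoglycerate mutase and enolase of striated muscle, and PGAM1 and ENO1 are the widely used forms. Adult heart muscle of mammals draws most of its ATP from fatty acids and holds glycolysis as a smaller supply. Whether the muscle copies and the general copies of the zebrafish enzymes moved alike was the question put to these libraries.

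Libraries held 302157 to 572295 corrected transcript counts with overexpression, 238142 to 352807 in controls 1, 3 and 4, and 49598 in control 2. Control 2 was thus the shallowest library, and 67.7% of its counts came from mitochondrial genes, against 44.9% to 56.7% in the other controls and 28.1% to 35.1% in the overexpression libraries. The dsRED reporter averaged 584.7 ± 37.9 CPM (counts scaled to the library total after TMM) in controls and 3049 ± 761 CPM with overexpression (SD, n = 4 each), and hmga1a, the targeted gene, 73.1 ± 41.1 and 118.2 ± 24.8 CPM with overlapping groups (log2 fold change 0.47 ± 0.30 SE, edgeR adjusted p = 0.177). The call of hmga1a depended on the setting: it passed with library totals alone (0.80, edgeR adjusted p = 0.0486) and without control 1 (0.85, adjusted p = 0.0444), and stood at -0.49, not called, with contractile scaling. An eGFP entry, whose construct the labels do not name, did separate the groups, at 56.8 to 241.6 CPM in controls and 531.5 to 679.5 CPM with overexpression (log2 fold change 2.60 ± 0.26, edgeR adjusted p = 1.2e-09). Whether the transgene's RNA is counted under that symbol is not known. Of the cardiomyocyte contractile genes listed, 11 of 16 tested were higher with overexpression under TMM and 3, ttn.1, ttn.2 and myh6, were lower. Over all genes tested 30.4% were higher and 29.2% lower. Scaled to the contractile genes themselves, 6 were higher and 4 lower, where 7.01% and 55.8% of all genes were. After thinning to the smallest library 2 of 13 were higher and 1 lower, against 5.04% and 11.3% of all genes. The summed level of the list under TMM was 20353 to 31155 CPM in controls and 41919 to 52146 CPM with overexpression. The marker myl7 was at 0 in 7 of the 8 libraries, and myl4 and tcap were at 0 in all of them, so a 0 in this table is not read as a silent gene.

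Of the 10 genes, 7 were higher with Hmga1a overexpression by edgeR's quasi-likelihood test with Benjamini-Hochberg adjustment over the 2501 genes tested, with libraries scaled by TMM; 2 of them, pgam2 and eno3, were also called higher when libraries were instead scaled to their contractile genes, where 7.01% of all genes were. They were pgk1, pgam1a, pgam2, eno1a, eno3, pkma and pkmb. The other 3, gapdh, gapdhs and pgam1b, were not called. Among all genes tested 30.4% were called higher and 29.2% lower, and the median log2 fold change was 0.01 over all genes and 0.95 over the 10. No member was called lower: edgeR counted 0, both adjusted and at an unadjusted p under 0.05, and DESeq2 likewise 0. All 10 genes passed the filter on low counts, pgam2 through its overexpression libraries. Without pgam2 the count was 6 of 9 and the median 0.88, and with contractile scaling eno3 alone remained called higher. In 5 genes every overexpression library lay above every control, which held for 25.7% of all genes tested. The 5 include pgam2, whose separation is favoured by the way it passed the filter. The converse held for 0 members and for 17.7% of all genes.

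**Figure D1:**
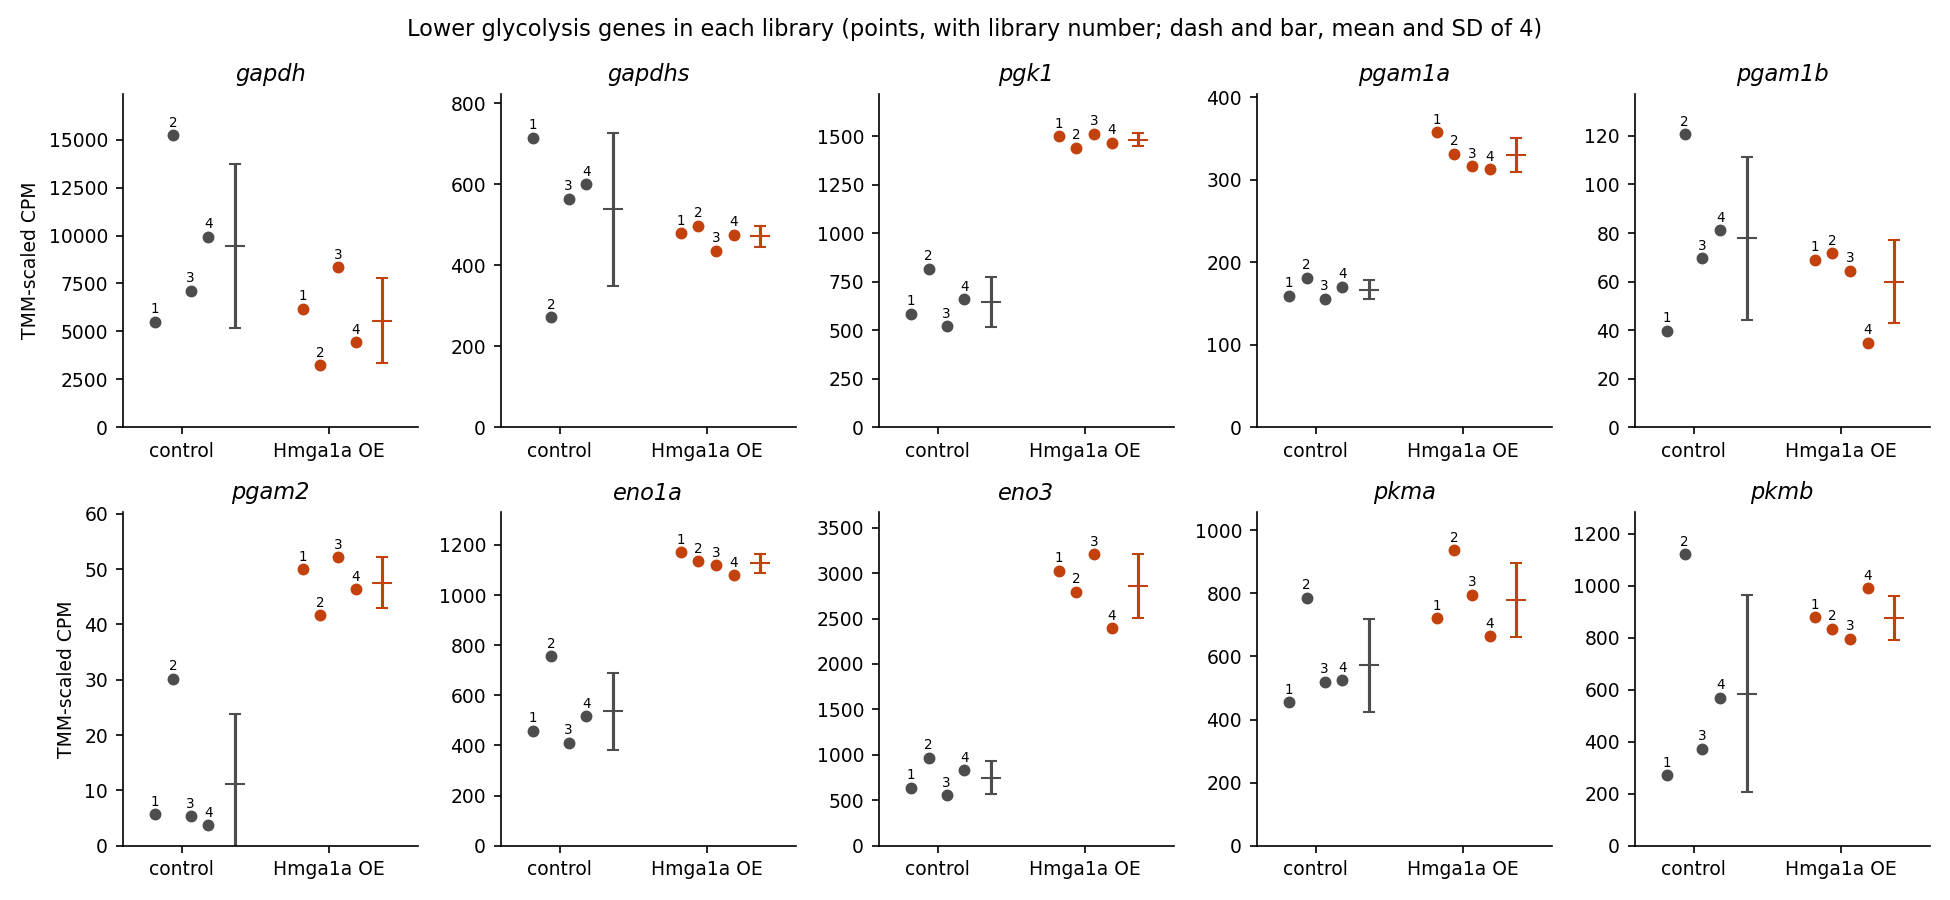
Levels of the 10 lower glycolysis genes in TMM-scaled CPM (vertical axes, from 0, a scale of its own for each gene) in the 4 control and 4 Hmga1a overexpression libraries; points carry the library number, and dash and bar give the mean and SD, cut at 0 for pgam2. The overexpression points of pgk1, pgam1a, pgam2, eno1a and eno3 lie above all control points, and those of gapdh, gapdhs, pgam1b, pkma and pkmb overlap them.

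The first enzyme, glyceraldehyde-3-phosphate dehydrogenase, oxidises the sugar phosphate and makes NADH. Its copy gapdh stood at 5499, 15230, 7120 and 9945 CPM in controls 1, 2, 3 and 4, and at 6187, 3249, 8355 and 4448 CPM in the overexpression libraries of the same numbers. The groups overlapped, control 2 was the highest library and overexpression 2 the lowest, and these differed 4.69-fold. The means were 9449 ± 4270 and 5560 ± 2220 CPM (SD, n = 4 each), and the log2 fold change of -0.74 ± 0.39 (SE) missed the threshold (edgeR adjusted p = 0.138). This call turned on single libraries, on the filter and on the scaling. With all libraries it passed as lower under a stricter filter on low counts (-1.06, edgeR adjusted p = 0.0313). It did so too when scaled to the contractile genes (-1.60, edgeR adjusted p = 1.4e-06). It passed as lower without control 3 (-0.85, edgeR adjusted p = 0.034) or without overexpression 3 (-0.95, adjusted p = 0.0301), and moved to -0.39 without control 2 (adjusted p = 0.402).

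The second copy, gapdhs, carries the name of the mammalian sperm form of the enzyme. It was present at 715, 272, 564 and 600 CPM in controls and at 479, 497, 436 and 476 CPM with overexpression. The overexpression libraries lay close together, inside the range that control 2, the lowest, and control 1, the highest, spanned. The log2 fold change was -0.31 ± 0.17 (edgeR adjusted p = 0.117) under TMM and 0.08 when only library totals were used, so the direction was not stable. Without control 2, gapdhs passed as lower (-0.37, edgeR adjusted p = 0.0253). With all libraries it did so under a stricter filter (-0.59, edgeR adjusted p = 0.00454) and with contractile scaling (-1.23, edgeR adjusted p = 1.2e-04). Its share of the counts of both copies averaged 6.57% ± 4.04 in controls and 8.77% ± 3.57 with overexpression (exact permutation test over 70 assignments, two-sided, p = 0.486, n = 4 each), and the groups overlapped.

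Phosphoglycerate kinase, the first step that yields ATP, was counted under pgk1 alone. It stood at 586, 817, 520 and 662 CPM in controls and at 1503, 1442, 1515 and 1467 CPM with overexpression. All overexpression libraries were above all controls, and the highest of them was 1.05-fold the lowest. The mean went from 646.4 ± 127.6 to 1482 ± 33.3 CPM, a log2 fold change of 1.26 ± 0.15 (edgeR adjusted p = 2.0e-08). The coefficient of variation was 19.7% in controls and 2.25% with overexpression. These rest on 27.1 to 207.1 corrected counts in controls and 494.6 to 887.5 with overexpression. The part of counting error in that difference was not tested. Scaled to the contractile genes, pgk1 differed by 0.34 on the log2 scale and was not called.

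Phosphoglycerate mutase moves the phosphate group from carbon 3 to carbon 2 of its substrate, and its copies differed in their calls. The general copy pgam1a rose from 160, 181, 156 and 170 CPM to 358, 332, 316 and 313 CPM with no overlap (log2 fold change 1.02 ± 0.20, edgeR adjusted p = 6.3e-05; 0.07 and not called when scaled to the contractile genes). The copy pgam1b stood at 39.7, 120.7, 69.8 and 81.1 CPM in controls and at 69.0, 71.8, 64.5 and 34.8 CPM with overexpression. These ranges overlapped widely, and the log2 fold change of -0.15 ± 0.35 was not called (edgeR adjusted p = 0.725); it was 0.24 with library totals alone. No test of the difference between pgam1a and pgam1b was made.

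The muscle copy pgam2 was nearly uncounted in controls. Its corrected counts were 2, 1, 1 and 1 in the controls, against 21.1, 25.1, 17.0 and 28.1 with overexpression. Scaled to depth these are 5.66, 30.2, 5.36 and 3.68 CPM against 49.9, 41.6, 52.2 and 46.4 CPM, without overlap. The value of control 2 is 1 transcript in a shallow library. Summed over libraries, 91 counts against 5 gave a depth-adjusted ratio of 7.86 with a 95% interval of 3.25 to 24.8 that covers counting error only. Without control 2 the ratio was 9.44 (3.56 to 35.4, 91 counts against 4). The fitted log2 fold change was 2.90 ± 0.57 (edgeR adjusted p = 5.3e-05), a value that at counts this low depends on the small count that edgeR adds.

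Enolase makes phosphoenolpyruvate, and both of its well-counted copies rose under TMM scaling. The general copy eno1a went from 459, 756, 411 and 516 CPM in controls to 1171, 1134, 1120 and 1080 CPM with overexpression, without overlap (log2 fold change 1.19 ± 0.16, edgeR adjusted p = 1.8e-07; 0.25 and not called when scaled to the contractile genes). The muscle copy eno3 went from 640, 969, 559 and 832 CPM to 3026, 2796, 3206 and 2393 CPM. Its lowest overexpression library was far above its highest control. The means were 750 ± 186 and 2855 ± 351 CPM, a log2 fold change of 2.00 ± 0.16 (edgeR adjusted p = 1.2e-11). Over 18 alternative settings the value for eno3 ranged from 1.07 to 2.41 and was called higher in each.

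Pyruvate kinase closes the pathway and yields its second ATP. Its copy pkma stood at 456, 787, 520 and 524 CPM in controls and at 721, 936, 796 and 664 CPM with overexpression, and pkmb at 272, 1121, 373 and 570 CPM in controls and at 878, 834, 796 and 991 CPM. In both genes control 2 alone made the groups overlap, and every other control lay below every overexpression library. The log2 fold changes were 0.56 ± 0.17 for pkma (edgeR adjusted p = 0.00455) and 0.88 ± 0.29 for pkmb (edgeR adjusted p = 0.0185), and scaled to the contractile genes they turned to -0.37 and -0.05, neither called. Without control 1, pkma missed the threshold (0.40, edgeR adjusted p = 0.0523). Without control 2 the values were 0.69 for pkma and 1.16 for pkmb (edgeR adjusted p = 1.9e-04 and 7.4e-06). Without control 1, pkmb stood at 0.54 (edgeR adjusted p = 0.0381), and with a stricter filter on low counts neither gene was called (0.29 for pkma and 0.62 for pkmb, edgeR adjusted p = 0.137 and 0.0549).

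Shares of the copies within an enzyme do not depend on how libraries are scaled to each other, nor on gene length when the same share is set between groups. The share of eno3 in the counts of eno1a and eno3 was 58.2%, 56.2%, 57.6% and 61.7% in controls 1 to 4. With overexpression it was 72.1%, 71.2%, 74.1% and 68.9%, so that every overexpression library was above every control. The means were 58.4% ± 2.35 and 71.6% ± 2.16, a difference of 13.1 percentage points (SD, n = 4 each). The exact permutation test gave p = 0.0286, the smallest its 70 assignments allow, and 0.0571 after Benjamini-Hochberg adjustment over the 4 shares tested, which misses 0.05. At that smallest p a share passes after adjustment only if most of the 4 shares reach it. The miss therefore does not speak to the size of this difference. The eno3 shares rested on 57.2 to 388.2 enolase counts in controls and on 1413 to 2367 with overexpression.

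The share of pgam2 in the counts of the 3 mutase copies was 2.76%, 9.09%, 2.32% and 1.44% in controls and 10.5%, 9.35%, 12.1% and 11.8% with overexpression. The groups did not overlap, but control 2 came close to overexpression 2. In control 2 the share is 1 of 11 counts, with an exact Clopper-Pearson 95% interval of 0.23% to 41.3%, and in overexpression 2 it is 25 of 268, with an interval of 6.13% to 13.5% (counting error only). The means were 3.90% ± 3.50 and 10.9% ± 1.25, a difference of 7.01 percentage points (exact permutation test, two-sided, p = 0.0286, adjusted 0.0571, n = 4 each). Taken as the log2 ratio of the copies, the same comparison gave p = 0.143 (adjusted 0.286, exact permutation test). The pkma share of the pyruvate kinase copies differed by less than the spread between libraries, at 52.5% ± 9.73 and 47.0% ± 5.61 (exact permutation test, p = 0.371, n = 4 each). Reads of near-identical copies may be split between them by the counting, which is not described in the sources used here.

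**Figure D2:**
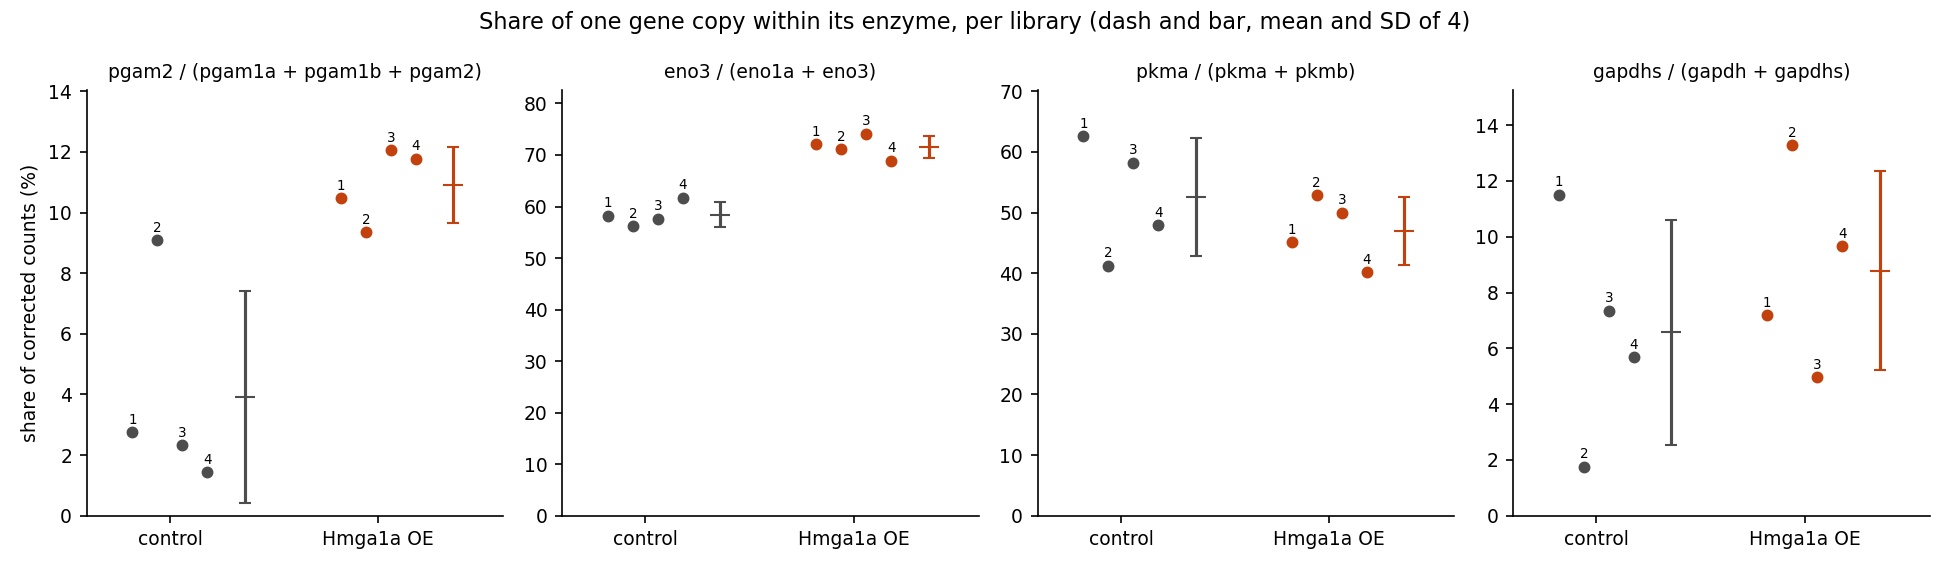
Share of the named copy in the corrected counts of its enzyme, in percent (vertical axes from 0), for each control and Hmga1a overexpression library; points carry the library number, and dash and bar give the mean and SD of 4. The eno3 share is 56.2% to 61.7% in controls and 68.9% to 74.1% with overexpression, the pgam2 point of control 2 rests on 1 count, and the pkma and gapdhs shares overlap between groups.

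Summed over the copies of each enzyme, the ratio of group means was 0.604 for glyceraldehyde-3-phosphate dehydrogenase, 2.29 for phosphoglycerate kinase, 1.71 for phosphoglycerate mutase, 3.10 for enolase and 1.43 for pyruvate kinase. The enolase sum was 970 to 1726 CPM in controls and 3473 to 4327 CPM with overexpression, without overlap. Pyruvate kinase overlapped only through control 2, at 1908 CPM. The 9 genes other than gapdh together held 3179 to 5055 CPM in controls and 7465 to 8304 CPM with overexpression, while all 10 together overlapped, at up to 20284 CPM in controls and 11334 to 16658 CPM with overexpression. Other listed copies added little: eno1b, eno2 and eno4 stayed under 10 CPM in every library, pklr was at 0 in all of them, and pgam5, a mitochondrial phosphatase that shares the family name, was not called (0.53 ± 0.40, edgeR adjusted p = 0.255).

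Library scaling set the size of these changes. With library totals alone the median of all genes moved to 0.38 on the log2 scale, and scaled to contractile genes it moved to -1.03. Relative to that median, eno3 stood at 1.99, 2.03 and 2.104 under TMM, library totals and contractile scaling, pgk1 at 1.26, 1.28 and 1.37, and gapdh at -0.75, -0.61 and -0.57. The order of the members was the same under the 3 scalings, and the zero line moved. A change of scaling shifts all genes by nearly the same amount. The unchanged order and the like values relative to the median were therefore nearly fixed in advance. Under contractile scaling 2 members were called higher (pgam2 and eno3) and 3 lower (gapdh, gapdhs and pgam1b), where 7.01% of the 2598 genes tested were called higher and 55.8% lower. Of the 16 contractile genes tested, 6 were themselves called higher and 4 lower in that comparison. There eno3 rose by 1.07 on the log2 scale over the summed contractile counts, not over each contractile gene.

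**Figure D3:**
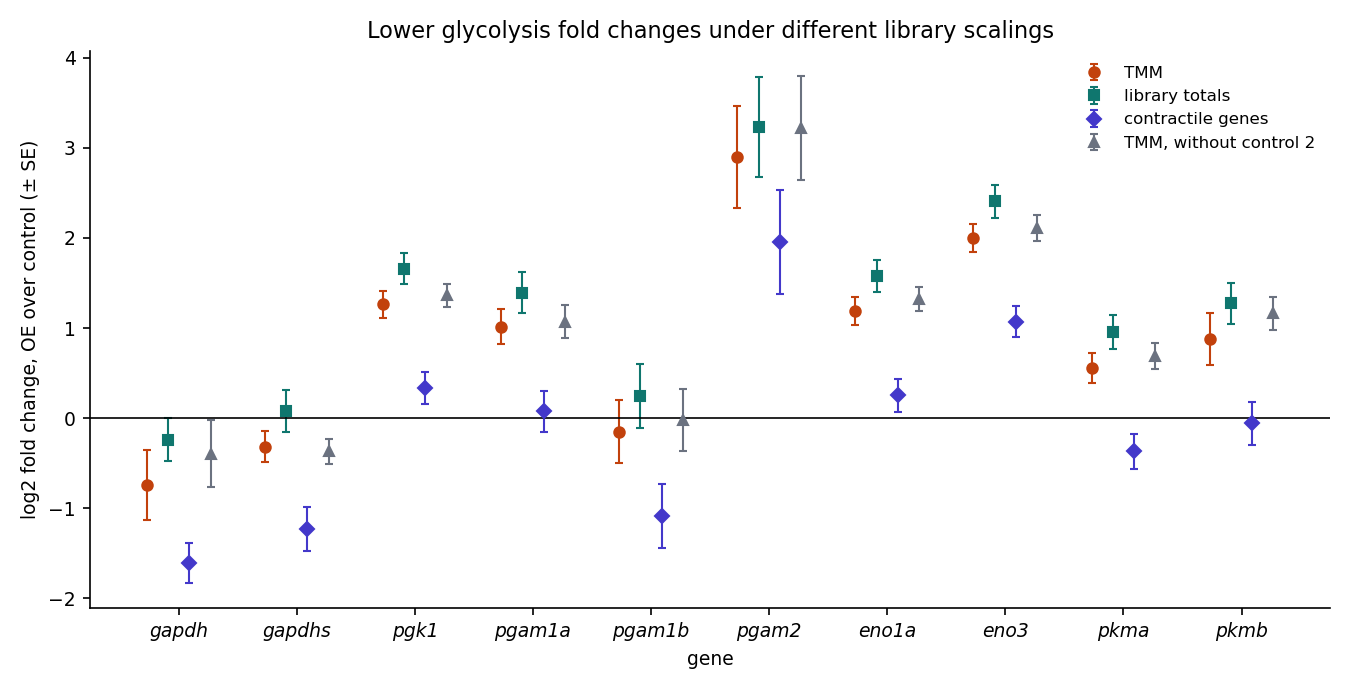
Log2 fold change of overexpression over control with its SE (vertical axis) for each of the 10 genes under TMM, library totals, scaling to contractile genes and TMM without control 2. Under contractile scaling pgam2 and eno3 keep values of 1.96 and 1.07, pkma and pkmb turn to -0.37 and -0.05, and gapdhs and pgam1b change sign between TMM and library totals.

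The steps before and after lower glycolysis were read from listed genes. In upper glycolysis, which splits glucose into the 3-carbon sugars, 8 of 10 tested genes were higher under TMM scaling, with a median log2 fold change of 0.86, and 3 were higher and 1 lower (median -0.09) when scaled to the contractile genes. Without control 3, 5 of 10 were higher, with a stricter filter 4 of 7, and after thinning to the smallest library 0 of 6. Over all genes the share called higher was 30.4% under TMM and 7.01% with contractile scaling. It was 27.1% without control 3, 31.7% with the stricter filter and 5.04% after thinning. Triosephosphate isomerase tpi1b, the last step before gapdh, rose from 558.5 ± 138.7 to 1643 ± 109 CPM (1.66 ± 0.15, edgeR adjusted p = 2.8e-10). Aldolase aldoab, phosphofructokinase pfkmb and aldolase aldocb rose by 1.46, 1.67 and 0.83, and hk2 and pfkpa were not called. Among the 8 genes higher, gpib and pfkla stood at 5.66 to 60.35 and 0 to 48.2 CPM in controls. They passed the filter on low counts through their overexpression libraries, which favours a call as higher. After pyruvate, all 7 tested genes of the mitochondrial pyruvate carrier, pyruvate dehydrogenase and its kinases were higher, with a median of 1.84, and 5 were with contractile scaling (median 0.93). Thinning left 3 of them tested and 0 called higher. Of these genes, pdhx and pdk2a too passed the filter through their overexpression libraries. The carrier subunit mpc1 rose from 212.4 ± 46.2 to 954 ± 68.7 CPM (2.27 ± 0.17, edgeR adjusted p = 6.5e-12), mpc2 by 1.97, and the dehydrogenase complex's acetyltransferase dlat by 1.84. The dehydrogenase subunit pdhb went from 304.9 ± 106.1 to 932.2 ± 55.4 CPM. Under TMM scaling the step catalysed by gapdh was thus the one enzyme of lower glycolysis whose summed mean was not higher. Its sums overlapped, at 6214 to 15502 CPM in controls and 3746 to 8792 CPM with overexpression, and were not tested. With contractile scaling both pyruvate kinase copies also stood below 0, at -0.37 for pkma and -0.05 for pkmb, neither called.

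Carriers of sugar and lactate and regulators of glycolysis gave other calls. Of the sugar and lactate carriers, 3 of 4 tested genes were lower under TMM and 1 of 4 with library totals alone, and a stricter filter left 2 genes, 1 of them lower. Over all genes the share called lower was 29.2%, 19.2% and 35.3% in these settings. The 3 lower under TMM were the glucose carriers slc2a3b (-1.69 ± 0.39, edgeR adjusted p = 3.8e-04) and slc2a1b (-0.83) and the lactate carrier slc16a3 (-1.22). With overexpression slc2a3b stood at 9.19 to 24.8 CPM. It passed the filter on low counts through its controls, which favours a call as lower. The lactate carrier slc16a1b was not called. Among listed regulators, the hypoxia-inducible factor genes epas1b (-2.23 ± 0.26, edgeR adjusted p = 2.1e-08) and hif1ab (-0.63) were lower and hif1al was not called, and 1 of these 3 genes was called lower with library totals alone or without overexpression 4. Lactate dehydrogenase could not be followed, since ldha was at 0 in every library and ldhbb averaged 4.31 CPM at most. The listed copy ldhba had no entry in the counts.

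**Figure D4:**
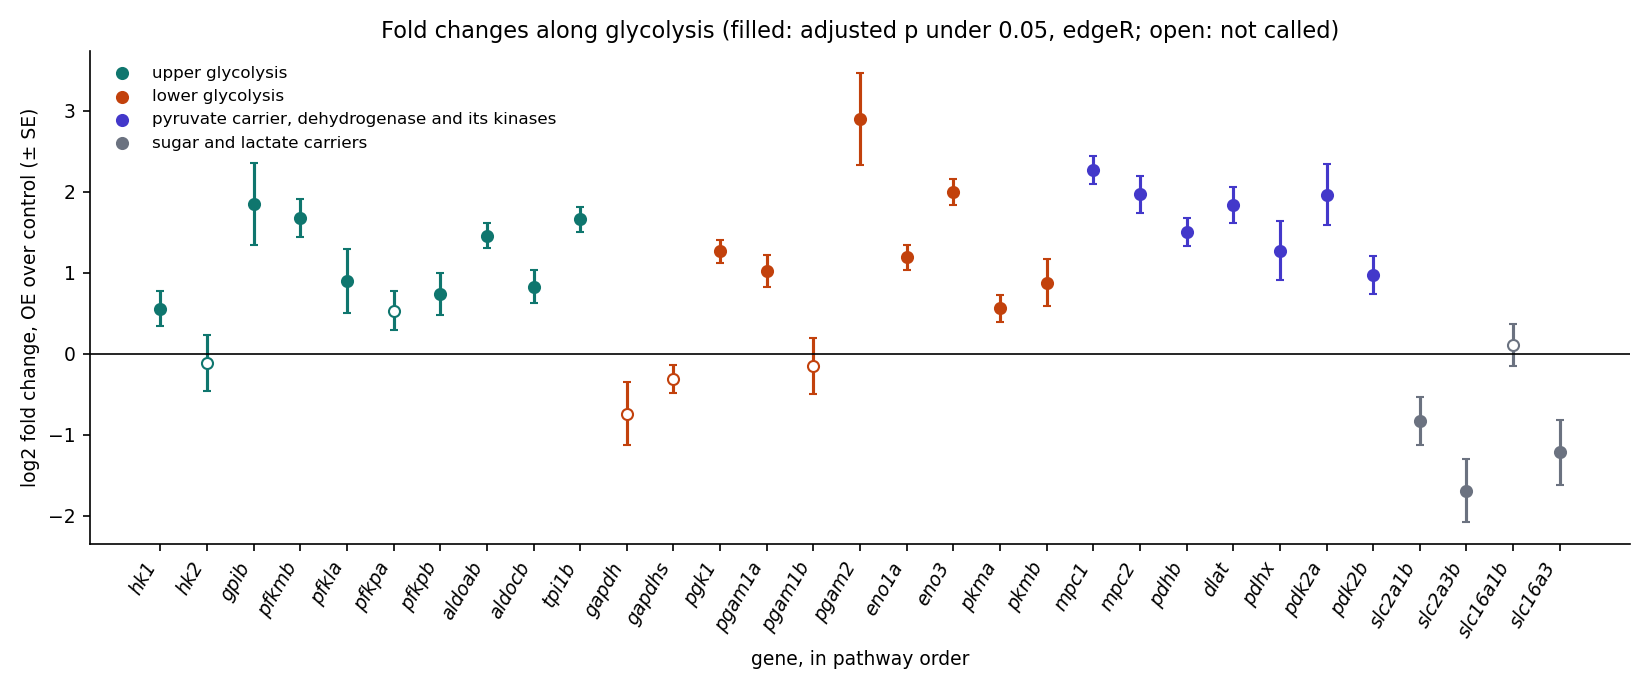
Log2 fold change with SE (vertical axis, TMM scaling; the text gives the calls under other scalings) of the tested genes in pathway order from hexokinase through lower glycolysis to pyruvate entry, followed by carriers; filled points passed an edgeR adjusted p of 0.05. Values of 1.66 for tpi1b and 1.26 for pgk1 flank gapdh at -0.74 and gapdhs at -0.31, which were not called, and slc2a1b, slc2a3b and slc16a3 lie below 0.

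The rises stood beside changes in markers of cell types. The 2 tested endothelial genes, 2 fibroblast genes and 3 leukocyte genes, of 10 listed for each type, were each called lower under TMM. With library totals alone 1, 2 and 3 of them were. Over all genes the share called lower was 29.2% under TMM and 19.2% with library totals alone. The endothelial count was 0 without control 1, and 1 without control 2, overexpression 1 or overexpression 3 and with DESeq2. Over all genes 25.1% to 30.1% were called lower in those settings. The summed level of the endothelial list was 91.1 to 201.6 CPM in controls and 33.3 to 62.9 CPM with overexpression. That of the fibroblast list was 762.2 to 1513 CPM and 140.7 to 200.6 CPM, and that of the leukocyte list 3319 to 6368 CPM and 1396 to 1945 CPM. None of these sums overlapped between the groups, but single genes did, fli1a and mpeg1.1 among those tested. A few genes carried the sums. In controls cd74a and cd74b averaged 4035 and 1078 CPM, and fn1b and col1a1b 680.3 and 296.4 CPM. Over all genes tested, 17.7% had every overexpression library below every control. Of the 13 skeletal muscle genes present, 9 were at 0 in every library, and the actin genes acta1a and acta1b were tested. The first was higher (1.77, edgeR adjusted p = 5.7e-10) and the second was not called. Of 7 erythrocyte genes 5 were at 0, both beta globins included. The gene cahz was higher under TMM (1.43), with overlapping groups, and was not called with contractile scaling (0.46). The part of cell makeup in the changes of the glycolysis genes was not tested, and in bulk libraries fewer cells of a type and less RNA per cell cannot be told apart. The contractile genes had a median log2 fold change of 1.03 under TMM, above which lay pgam2, eno3, eno1a and pgk1. Single contractile genes ran from -4.00 for myh6 to 2.04 for myh7, and the dsRED reporter stood at 2.36. Inside that range lay eno3, eno1a and pgk1, and pgam2 alone, with 1 or 2 counts per control, lay above it.

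The authors' deposited table, which compares controls 1, 3 and 4 with overexpression libraries 2, 3 and 4, marks 6 of the 10 genes as raised: pgk1, pgam1a, pgam2, eno1a, eno3 and pkmb. In the authors' deposited table eno3 has a log2 fold change of 2.34 (FDR 2.1e-23) and pgam2 of 3.44 (FDR 2.3e-07). The authors' deposited table gives pkma 0.99 (FDR 4.5e-06) without marking it as raised, and gapdh -0.19 (FDR 0.779). The share of the 7998 genes of that comparison marked as raised was not counted here, so the 6 of 10 has no background beside it. The 6 marked genes are among the 15 that the authors' deposited table of enriched terms lists under the glycolytic process. That list was drawn from raised genes, so it adds no evidence of its own. These comparisons share 6 of the 8 libraries used here and are no separate measurement.

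The genes whose profile over the 8 libraries was nearest to eno3, by the root mean square difference of centred log2 CPM, were the myosin light chain gene myl9b (0.15), mpc1 (0.15), the respiratory chain complex I gene ndufb8 (0.16) and the ATP synthase genes atp5f1d and atp5po (0.16 each). The other enolase, eno1a, differed from eno3 by 0.44 and pgk1 by 0.39. This measure largely follows the difference between the groups. The genes nearest to eno3 had log2 fold changes of 1.79 to 2.27, against 2.00 for eno3. Shared regulation was not tested. For pgam2 the nearest were sbk3 (0.23), isca2 (0.29), si:ch1073.325m22.2 (0.30), hsc70 (0.30) and si:dkey.188i13.11 (0.31), and eno3 differed from it by 0.45. The control values of pgam2 in this measure rest on 1 or 2 counts and on the prior count of 2 added before the log.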

How the data were processed

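The authors deposited estimated counts per gene for 8 libraries, which the values show to be numbers of unique molecular identifiers corrected for repeated use (4096 possible identifiers; 100% of 62181 non-zero values are whole after undoing it, tolerance 0.01). Per the submitters' processing notes, danRer11 and edgeR were used; the sources used here name no aligner, counting program, annotation or use of strand. The most identifiers used by a member were 48.6% (gapdh), so counts were below saturation. The 67 spike-in entries were left out. The authors' deposited table of a comparison gives edgeR log2 fold changes with p-values and FDR, per the file headers, and count columns that equal 6 of the libraries. The authors also deposited tables of enriched terms, with the genes of each term.

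Here, counts were rounded and tested in R 4.3.3 with edgeR 4.0.16: filterByExpr (minimum count 10), TMM, robust quasi-likelihood fit, no covariate, Benjamini-Hochberg over all genes tested, threshold 0.05. The test was checked on simulated counts. Fold changes carry SEs derived from the coefficient and F. Levels are CPM after TMM, with the SD over 4 libraries. CPM and the setting with library totals alone used totals over the genes that passed the filter. Shares of copies were compared by exact permutation tests. Alternatives were DESeq2 1.42.0, other scalings and filters, identifiers before correction, thinning, the authors' 6 libraries, a replicate block and leaving out each library. Precision of the shares rests on their counts, which the text gives for eno3 and pgam2. In control 2 the pkma share rested on 63.2 counts of both copies, and the gapdhs share on 9.01 gapdhs counts. Intervals and SEs do not cover differences in preparation.

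Named genes are all members, hmga1a and dsRED, up to 4 called genes per other list by smallest p, or its 2 most abundant where none passed, and the 5 nearest profiles of pgam2 and eno3. The eGFP entry was named outside this rule. Other list genes were named after their values were seen. Members and lists were chosen with earlier results of these data known. Gene positions and sequences were not used here.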

Additional observations from a re-analysis of the deposited data

Results flagged for a closer look

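The pgam2 level of control 2, 30.2 CPM, lay far from the 3.68 to 5.66 CPM of the other controls, with a gap to the nearest of 0.925 of the group's range. Chance flags about 1 in 20 groups of 4, and 28 groups were examined, of which 1 was flagged. The value is 1 corrected count in the library with the smallest total, 49598 counts.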

How the results depend on the processing

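Of the 84 values of the counts and shares under alternative settings, 75 kept their direction and side of the threshold or stayed within 1.5-fold. No share passed 0.05 after adjustment in the report, where the smallest possible p, 0.0286, passes only if most of the 4 shares reach it. The smallest p the exact permutation test allows was 0.0571 with a library left out and 0.1 in the authors' 6 libraries. With a replicate block it was 0.125 (sign-flip test). In these settings no share could pass, so that each kept its side was fixed in advance. The number of members called higher was 7 in the report, 2 with scaling to contractile genes, 4 with a stricter filter (at least 20 counts in 4 libraries, 9 members tested) and 1 after thinning to the smallest library (8 members and 476 genes tested); over all genes the share called higher was 30.4% in the report and 7.01%, 31.7% and 5.04% under these settings. The number called lower was 0 in the report and 3, 2 and 0 under those settings, 1 (gapdhs) in the authors' 6 libraries, and 0 to 1 when single libraries were left out; the share of all genes called lower was 29.2% in the report and 55.8%, 35.3% and 11.3% under the first 3 settings. Directions reversed for gapdhs (0.079) and pgam1b (0.24) with library totals, for pgam1b without a filter (0.077) and without overexpression 4 (-0.52 to 0.11 over the libraries left out), for pkma (-0.37), pkmb (-0.054) and hmga1a (-0.49) with contractile scaling and for pkma after thinning (-0.15). With contractile scaling the median of all genes moves by construction; the cause of the other changes was not tested.

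The labels do not say that equal sample numbers pair the libraries. Deviations of same-numbered libraries from their group means correlated at 0.01, -0.06, -0.03 and 0.00. These values include counting noise, most of all in control 2, and cannot exclude a pairing. With a replicate block, 1 of 4 sugar and lactate carriers was lower in place of 3, 7 members were higher and 0 lower, and the eno3 and pgam2 share differences, 13.1 and 7.01 points, had an exact p of 0.125, the smallest a sign-flip test of 4 pairs allows. Over all genes the block called 696 higher and 652 lower, against 760 and 730. Depth limits pgam2, pgam1b and every control 2 value.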

Other observations

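The balance of gapdh against its neighbour pgk1 was looked at after their values were seen, so it is given as a description with no test. Counts of gapdh per count of pgk1 were 9.38, 18.6, 13.7 and 15.0 in the controls, against 4.12, 2.25, 5.52 and 3.03 with overexpression, so the groups did not overlap, although those of gapdh alone did. This ratio, unlike a level, does not depend on library scaling. It varied between the libraries of a group, and depth was not balanced between the groups. The shallowest library, control 2, had the highest ratio, and the deepest control, control 1, the lowest of the controls. Control 4, with 344241 counts, had a higher ratio than control 3, with 238142. Overexpression libraries 1 and 3, the shallower ones, had higher ratios than 2 and 4, though 4, the deepest, was above 2. At 302157 and 363940 counts, overexpression 3 and 1 had ratios of 5.52 and 4.12. Controls 4 and 1, at 344241 and 352807 counts, had ratios of 15.0 and 9.38. The part of depth in the difference between groups was not tested. Counts of eno1a per count of pgk1 were nearly alike in both groups, at 0.82 ± 0.07 in controls and 0.76 ± 0.03 with overexpression, whereas counts of eno3 per count of pgk1 were 1.15 ± 0.09 and 1.93 ± 0.21 (SD, n = 4 each).

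As a share of the counts of all 10 genes, gapdh made up 62.3% to 75.1% in controls and 28.7% to 50.2% with overexpression. The part of depth in this difference was not tested either.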
